A study of Homo sapiens with 4 samples.

Results

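CRIP and S100 mRNAs are short messages for small metal-binding proteins, and their recovery with KIAA1429 was examined here across 4 RNA immunoprecipitation sequencing (RIP-seq) libraries. The set held 10 named genes, namely CRIP1, CRIP2, S100A4, S100A6, S100A10, S100A11, S100A13, S100A14, S100A16 and S100P. Of these, 9 had listed transcripts, 23 of the 34975 transcripts in all, and S100A14 was not analysed here. CRIP1 was chosen by its higher value in both KIAA1429 libraries, so its difference between the groups is given as a description with no test. The other 8 genes were added as similar short mRNAs, although CRIP2 and S100A16, whose coding transcripts averaged 1161 and 1146 bases, exceed the limit of 1000 bases by which short mRNAs are counted below. The libraries came from HCCLM3 cells, a hepatocellular carcinoma line of human origin, and 2 were labelled KIAA1429 RIP (an antibody against the endogenous protein) and 2 IgG RIP (normal immunoglobulin as the background). No transgene, knockdown or other treatment is named for either group. Whether the replicates came from separate cultures is not given in the sources used here, so the p-values measure only the spread between these libraries. An input library, made from the lysate before precipitation, was not analysed here.

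KIAA1429, also called VIRMA, is the large scaffold subunit of the complex that writes N6-methyladenosine (m6A) on mRNA, and RIP-seq asks which RNAs come down with it. CRIP1 and CRIP2 are LIM-domain proteins, in which cysteines and histidines hold zinc ions, and CRIP2 carries a pair of LIM domains where CRIP1 carries a single one. S100 proteins are small calcium-binding proteins with EF-hand motifs that mostly act as dimers, change shape on binding calcium and dock onto partners such as annexins and myosin. Many of them are studied in epithelial tumours for their roles in motility and invasion.

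The 9 genes lie in 3 places of the GRCh37 genome. The 6 S100A genes lie on chromosome 1 between 151955391 and 153603836, all on the minus strand, and form part of the S100 gene cluster. S100A6 and S100A4 are 7368 bases apart there, and S100A16 and S100A13 are 5641 bases apart. CRIP2 and CRIP1 are neighbours on the plus strand of chromosome 14, with 6146 bases between them. S100P stands alone on chromosome 4, at 6694796 to 6698896 on the plus strand.

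The deposited values are FPKM, fragment counts divided by transcript length and by library depth, and a gene total here is the sum over the listed transcripts of a gene name. The cells' label was compared with markers. ALB lay between 53.5 and 76.3 FPKM, AFP between 99.1 and 128 FPKM and KRT18 between 820 and 1048 FPKM, whereas HNF4A stayed at 1.11 FPKM or lower. PTPRC, CD3E, PECAM1, VWF and COL1A1 had no listed row, and COL3A1 lay between 7.46 and 15.1 FPKM. The depth is not stated. In genes with 1 listed transcript, FPKM multiplied by the spliced length in kilobases piled up at a step of 1.02, 1.35, 1.15 and 1.03 in IgG RIP replicates 1 and 2 and KIAA1429 RIP replicates 1 and 2. If a step stands for 1 fragment, the libraries rest on about 985041, 742646, 872066 and 975148 fragments. The listed transcripts hold about 707214, 476800, 598991 and 656612 of these. Only 25.9% to 28.4% of values under 6 steps lay within 0.05 of a whole step, so reads were not recovered. Smaller peaks stood midway between the steps, and if these mark 1 fragment the numbers are 2 times as large. IgG RIP replicate 1 stood apart by transcript length. Its FPKM-weighted mean spliced length was 2687 bases, against 2310 bases in IgG RIP replicate 2 and 2293 and 2236 bases in the KIAA1429 RIP libraries. Differences of gene totals are also given without it, other than for S100A4, whose levels were too low.

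Among the 9 genes, S100A11 had the highest level in all 4 libraries and S100A6 the next, and CRIP1 was the fifth in every library. The levels spanned a wide range. S100A11 averaged 784 FPKM over the 4 libraries and S100A6 576 FPKM, S100A10 127 FPKM, S100A16 119 FPKM and CRIP1 74.5 FPKM. S100A13 averaged 31.5 FPKM, CRIP2 7.06 FPKM, S100P 5.80 FPKM and S100A4 2.04 FPKM. Neighbours in that order overlapped over the libraries, apart from S100A6 with S100A10 and S100A13 with CRIP2. Together the 9 made up 0.368% of the summed FPKM in IgG RIP replicate 1, 0.534% in IgG RIP replicate 2 and 0.596% and 0.625% in the KIAA1429 RIP libraries.

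**Figure D1:**
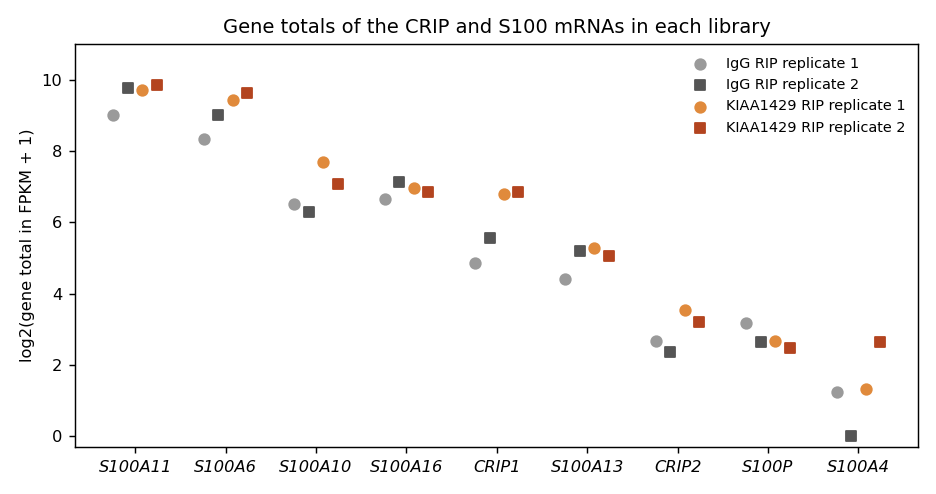
Gene totals of the 9 listed genes in each library, as log2(FPKM + 1), with genes ordered by their mean over the 4 libraries; grey marks are IgG RIP, orange and red marks are KIAA1429 RIP, circles are replicate 1 and squares replicate 2. CRIP1, CRIP2, S100A10, S100A6 and S100A4 had both KIAA1429 marks above both IgG marks, and S100A11, S100A13, S100A16 and S100P did not.

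CRIP1, which encodes cysteine-rich intestinal protein 1, was measured at 27.9 and 46.5 FPKM with IgG and at 109 and 114 FPKM with the KIAA1429 antibody. The KIAA1429 libraries lay close to each other and above both IgG libraries, and the IgG libraries lay further apart. FPKM are scaled to each library, so these values are shares of a library and not amounts of RNA recovered. The means were 37.2 ± 13.1 FPKM (SD, n = 2) and 112 ± 3.75 FPKM (SD, n = 2), a 3.01-fold ratio, and this is the contrast that chose the gene. The difference of log2(FPKM + 1) was 1.61, and it was 1.25 without IgG RIP replicate 1. In steps of the depth estimate, the totals corresponded to about 36.1 and 45.2 in IgG RIP against 72.6 and 81.1 in KIAA1429 RIP, where counting error alone is 16.6% to 11.1% of the value. In such a bulk measurement, more cells holding an RNA and more RNA per cell cannot be told apart, and without an input neither can be told apart from stronger recovery.

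The CRIP1 total was made of a pair of transcripts that differed between the groups in opposite directions. CRIP1-203 (677 bases, 6 exons) was listed at 0 in both IgG RIP libraries, and its KIAA1429 RIP values were 94.5 and 105 FPKM. CRIP1-201 (1311 bases, 5 exons) was listed at 27.9 and 46.5 FPKM in IgG RIP and at 14.7 and 9.01 FPKM in KIAA1429 RIP. The longer form thus carried the whole IgG total and the shorter form 86.5% and 92.1% of the KIAA1429 totals. The higher CRIP1 total in KIAA1429 RIP lay in CRIP1-203 alone, while CRIP1-201 was lower there in both libraries. Of 23375 transcripts averaging 1 FPKM or more, 30 (0.128%) were 0 in both IgG libraries with both KIAA1429 values at least 10 FPKM. The reverse held for 26 (0.111%). At 50 FPKM or more the numbers were 2 and 1.

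Both CRIP1 forms carry the same coding sequence of 231 bases before the stop codon, between 105953597 and 105954845 on chromosome 14, and differ in the untranslated ends. The forms share 521 bases. CRIP1-201 begins at 105952654 with an exon of 983 bases that runs through to 105953636, whereas CRIP1-203 begins at 105953204, joins 105953309 to 105953550 and runs 156 bases further at its 3′ end, to 105955284. The 240 bases left out by that junction stay in CRIP1-201. The sequences below, from the GENCODE annotation on GRCh37, show a place where a read can tell the forms apart, with 15 bases on either side of each boundary. Reads can also do so in the 156 bases at the 3′ end of CRIP1-203. The same holds for the part of CRIP1-201 ahead of the CRIP1-203 start. In the first sequence, the capitals are the second exon of CRIP1-203. In the next, they are bases that only CRIP1-201 holds, and in the last they are bases that both forms hold.
CRIP1-203, 105953309 joined to 105953550: agctgcgccctctcaCCCGTGCCGCCCCAG
CRIP1-201, chr14:105953295-105953324: agctgcgccctctcaGTAAGTCCCCATGGC
CRIP1-201, chr14:105953535-105953564: gtctcgcgcctgcagCCCGTGCCGCCCCAG

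**Figure D2:**
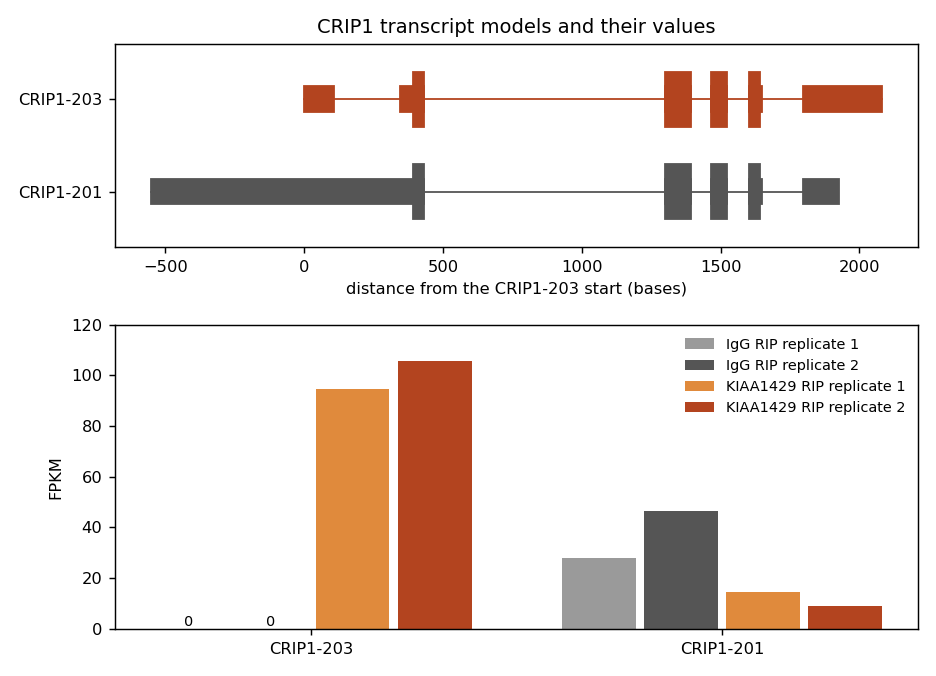
The upper panel draws the exons of CRIP1-203 and CRIP1-201 to scale by distance in bases from the CRIP1-203 start, with coding parts as taller boxes and introns as lines. The lower panel gives the FPKM of each transcript in each library as bars from 0; CRIP1-203 was at 0 in both IgG RIP libraries and CRIP1-201 was lower in both KIAA1429 RIP libraries.

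FPKM divides by transcript length, and CRIP1-201 is 1.94 times as long as CRIP1-203, so the form to which a fragment is assigned changes the total. When each FPKM was multiplied by its spliced length before summing, CRIP1 stood at 36.6 and 60.9 in IgG RIP and at 83.2 and 83.2 in KIAA1429 RIP, in FPKM times kilobases. The groups still did not overlap, but the ratio of means was 1.71-fold in place of 3.01-fold. The other genes moved less, from 1.77-fold to 1.74-fold for S100A6 and, the widest shift among those above 3 steps, from 1.25-fold to 1.49-fold for S100A13. CRIP1-202, another coding form of 672 bases that shares 658 bases with CRIP1-203, had no listed row. The annotated gene ENSG00000257341 shares 655 exonic bases with CRIP1 on the same strand and had no listed row either. How reads that fit several forms or genes were assigned is not given in the sources used here, and its part in the CRIP1 values was not tested.

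Across all gene totals with a mean of at least 1 FPKM (11361), the KIAA1429 RIP and IgG RIP groups did not overlap with KIAA1429 higher in 16.6% and with IgG higher in 15.2%. Beside CRIP1, 4 of the other 8 genes (CRIP2, S100A4, S100A6 and S100A10) had both KIAA1429 libraries above both IgG libraries, and 0 had both below. Under median scaling or quantile normalization, S100P had both below. S100A4 reached the mean of 1 FPKM only through its KIAA1429 RIP values, and leaving it out, 3 of 7 were apart and higher. The median log2 difference of these 7 was 0.40, against 0.02 over all gene totals. The differences were tested with limma on log2(FPKM + 1), with Benjamini-Hochberg adjustment over all 11361 gene totals and a call at an absolute log2 difference over 1 and an adjusted p under 0.05. No gene total was called, with 0 of 11361 higher (0%) and 0 lower (0%), although 266 were higher and 135 lower by more than 1 at an unadjusted p under 0.05. None of the 8 genes passed, with limma adjusted p-values of 0.997 for 7 of them and 0.999 for S100A16.

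S100A6 (calcyclin), a partner of the ubiquitin-pathway adaptor CACYBP, was measured at 320 and 512 FPKM in IgG RIP and at 684 and 787 FPKM in KIAA1429 RIP. Both KIAA1429 libraries lay above both IgG libraries, and the gap between the IgG libraries was wider than the gap to the lower KIAA1429 library. The log2 difference was 0.85 ± 0.38 (SE; limma adjusted p = 0.997), and it was 0.52 without IgG RIP replicate 1. S100A10, the calcium-insensitive member that forms a complex with annexin A2, was at 90.6 and 76.8 FPKM in IgG RIP and at 206 and 134 FPKM in KIAA1429 RIP. The groups did not overlap, and the KIAA1429 libraries differed from each other by 0.62 on the log2 scale. The log2 difference of S100A10 was 0.98 ± 0.33 (SE; limma adjusted p = 0.997), and it was 1.10 without IgG RIP replicate 1.

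CRIP2, the LIM-domain neighbour of CRIP1, was measured at 5.32 and 4.11 FPKM in IgG RIP and at 10.6 and 8.26 FPKM in KIAA1429 RIP. Both KIAA1429 libraries lay above both IgG libraries. The log2 difference was 0.87 ± 0.42 (SE; limma adjusted p = 0.997), and it was 1.02 without IgG RIP replicate 1. About 3.59 to 10.4 steps stood behind these totals, counted at the annotated length. S100A4, a partner of non-muscle myosin that is known for its link to metastasis, was listed at 1.34 and 0 FPKM in IgG RIP and at 1.52 and 5.30 FPKM in KIAA1429 RIP. These values corresponded to 0.997, 0, 1.00 and 3.32 steps, so the lower KIAA1429 library and the higher IgG library each rested on about 1 step. The separation of the S100A4 groups was not resolvable at this depth, and no fold is given for it.

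S100A11, a partner of annexin A1, was the most abundant member, at 513 and 863 FPKM in IgG RIP and at 832 and 927 FPKM in KIAA1429 RIP. The groups overlapped, since IgG RIP replicate 2 lay above KIAA1429 RIP replicate 1. Its log2 difference was 0.40 ± 0.41 (SE; limma adjusted p = 0.997) and 0.03 without IgG RIP replicate 1. S100A13, which takes part in the release of FGF1 from cells, was at 20.4 and 35.7 FPKM in IgG RIP and at 38.0 and 32.1 FPKM in KIAA1429 RIP. Here the low IgG RIP replicate 1 stood apart from the other 3 libraries. The S100A13 log2 difference was 0.36 ± 0.36 (SE; limma adjusted p = 0.997) and -0.03 without that library.

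S100A16, a broadly expressed member of the same cluster, was at 99.6 and 140 FPKM in IgG RIP and at 123 and 115 FPKM in KIAA1429 RIP. The KIAA1429 libraries lay between the IgG libraries, and the log2 difference was 0.01 ± 0.30 (SE; limma adjusted p = 0.999) and -0.24 without IgG RIP replicate 1. Its sign turned under median scaling, quantile normalization and length-weighted sums. S100P, first found in placenta, was at 8.04 and 5.22 FPKM in IgG RIP and at 5.35 and 4.58 FPKM in KIAA1429 RIP. Its mean was lower in KIAA1429 RIP, at a log2 difference of -0.33 ± 0.44 (SE; limma adjusted p = 0.997), with an overlap that rested on 5.35 against 5.22 FPKM, and at -0.06 without IgG RIP replicate 1. The annotated S100P length gives only 1.83 to 3.73 steps per library, and at most 10.1 if the longer deposited span is exonic.

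Ratios between members within a library do not change when that library is scaled by a common factor, though quantile normalization can change them. They were picked after the values were seen and are given as a description. The ratio of S100A6 to S100A11 was 0.624 and 0.594 in IgG RIP against 0.822 and 0.849 in KIAA1429 RIP, so the groups were apart with little spread in either. The ratio of S100A10 to S100A16 was 0.910 and 0.548 in IgG RIP against 1.67 and 1.16 in KIAA1429 RIP, and the pair ranked in the opposite order in the other group. The ratio of CRIP1 to CRIP2 was 5.25 and 11.3 in IgG RIP against 10.3 and 13.9 in KIAA1429 RIP, and it overlapped between the groups.

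The listed transcripts of the S100 genes were also examined apart. Over all 23375 transcripts averaging 1 FPKM or more, the groups did not overlap with KIAA1429 higher in 15.2% and with IgG higher in 14.5%, and limma called 0 higher (0%) and 0 lower (0%), with 675 and 542 past a log2 difference of 1 at an unadjusted p under 0.05. Of the members' transcripts, 19 had a mean of at least 1 FPKM, of which 7 were apart with KIAA1429 higher, 2 apart with IgG higher and 10 overlapped. Leaving out both CRIP1 forms, the numbers were 6, 1 and 10 of 17. Of these, S100A4-206, S100A13-204 and S100A13-206 reached the mean of 1 FPKM only through KIAA1429 RIP, and without them the numbers were 4, 1 and 9 of 14. None of the 17 was called (limma adjusted p = 0.879 or higher).

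S100A6 was made almost wholly of S100A6-201 (434 bases), which held 91.4% to 96.0% of the total in each library. This transcript was at 302 and 468 FPKM in IgG RIP and at 657 and 745 FPKM in KIAA1429 RIP. Its log2 difference was 0.89 ± 0.35 (SE; limma adjusted p = 0.879), so the gene total followed it. S100A6-202 was at 0.139 and 8.29 FPKM in IgG RIP against 10.7 and 11.4 FPKM in KIAA1429 RIP, and S100A6-205 and S100A6-203 overlapped between the groups. S100A10 and S100A11 each had 1 listed transcript, S100A10-202 (671 bases) and S100A11-201 (563 bases), so that their totals are those transcripts.

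S100A16-204 (1172 bases) held 70.0% to 78.7% of the S100A16 total and lay at 69.7 and 106 FPKM in IgG RIP and at 91.7 and 90.3 FPKM in KIAA1429 RIP. A smaller form of the gene went the other way. S100A16-202 (1146 bases), which is coding too, was at 8.35 and 7.63 FPKM in IgG RIP and at 0.982 and 3.33 FPKM in KIAA1429 RIP. Of the 17 transcripts, it was the only one whose IgG libraries both lay above both KIAA1429 libraries, with a log2 difference of -1.62 ± 0.60 (SE; limma adjusted p = 0.879).

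The makeup of S100A13 differed between libraries of the same group. IgG RIP replicate 1 listed only S100A13-205, of the type processed transcript, at 20.4 FPKM. IgG RIP replicate 2 listed S100A13-203 at 22.8 FPKM and S100A13-205 at 10.6 FPKM. KIAA1429 RIP replicate 1 held 15.4 FPKM of S100A13-204, a form at 0 in the other 3 libraries. It also held 10.6 FPKM of S100A13-203 and 9.91 FPKM of S100A13-205. KIAA1429 RIP replicate 2 held 15.9 FPKM of S100A13-203 and 14.7 FPKM of S100A13-205. The shares of the S100A13 forms thus differed between libraries within each group. CRIP2-201 (1178 bases) was at 5.32 and 1.73 FPKM in IgG RIP against 8.03 and 8.26 FPKM in KIAA1429 RIP, while CRIP2-202 appeared in IgG RIP replicate 2 alone and CRIP2-203 in KIAA1429 RIP replicate 1 alone. Of the S100A4 forms, the coding S100A4-203 was listed above 0 in KIAA1429 RIP replicate 2 alone, at 3.27 FPKM, and the rest of the total was S100A4-206, of the type processed transcript.

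**Figure D3:**
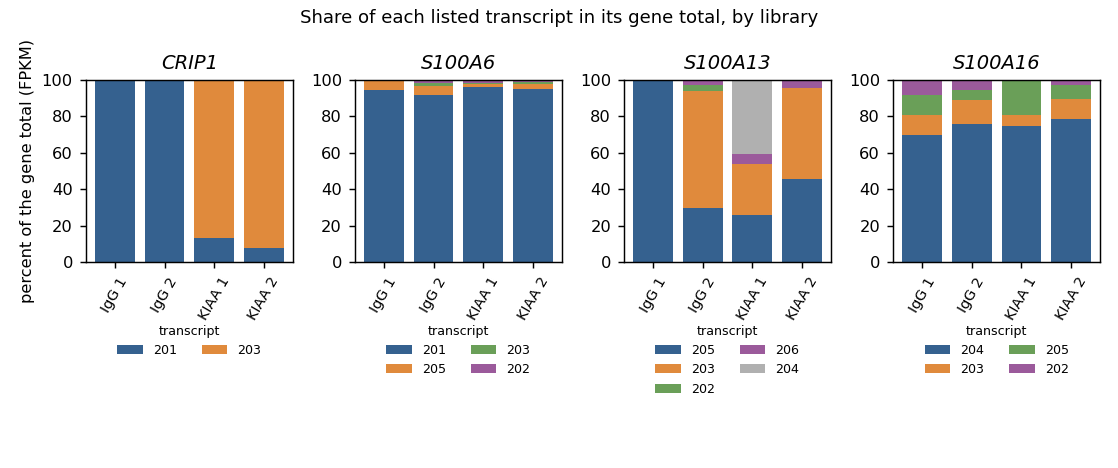
Percent of the FPKM gene total held by each listed transcript in each library, for CRIP1, S100A6, S100A13 and S100A16; IgG and KIAA stand for IgG RIP and KIAA1429 RIP, with the replicate number. CRIP1 was all CRIP1-201 in IgG RIP and 86.5% and 92.1% CRIP1-203 in KIAA1429 RIP, S100A6 and S100A16 kept the same leading form, and S100A13 varied within each group.

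The difference between the groups moved with transcript length over the whole transcriptome. The median log2 difference was 0.37 in the 351 gene totals of up to 600 bases and 0.37 in the 744 of over 600 to 1000 bases, and it was -0.08 in the 2019 of over 5000 bases. Between the libraries numbered replicate 1, the medians of these classes were 0.52, 0.45 and -0.20. Between those numbered replicate 2 they were 0.15, 0.25 and 0.02, a smaller shift. Among 764 short mRNAs (a mean length of coding transcripts of at most 1000 bases), 38.9% had both KIAA1429 libraries above both IgG libraries and 4.45% both below, with a median of 0.46. Among the 417 short mRNAs with a mean of at least 20 FPKM, the shares were 48.9% and 1.92%. By annotated length, 4 members beside CRIP1 fell in that class, and 2 of the 4 were apart and higher. S100A6 and S100A10 were so, against S100A11 and S100A13, a share close to that of the class. The IgG libraries differed by length between themselves too. The median log2 value of replicate 2 minus replicate 1 was 0.15 up to 600 bases and -0.30 over 5000 bases.

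Centring each library on the median of each length decile lowered all 9 differences. CRIP1 stood at 1.23, CRIP2 at 0.68, S100A10 at 0.61, S100A6 at 0.48 and S100A11 at 0.02 on the log2 scale after centring. S100A13 stood at -0.02, S100A16 at -0.18 and S100P at -0.71. CRIP1, CRIP2, S100A6 and S100A10 were still apart with KIAA1429 higher, S100A4 was not, and S100P was apart with IgG higher. What part length has in the members' differences was not tested. The lengths were read from GENCODE on GRCh37, in which 15 of the members' 23 transcripts have the same span as the deposited rows. Those with another span include the leading transcripts of CRIP2, S100A6, S100A10, S100A11, S100A13, S100A16 and S100P. If the extra span is exonic, S100A10 in IgG RIP replicate 1 stands at 107 steps in place of 59.9. Its length, and so its place among short mRNAs, is thus uncertain. With short mRNAs limited to the 101 whose listed transcripts all had the same span, 28.7% were apart with KIAA1429 higher and the median was 0.35.

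**Figure D4:**
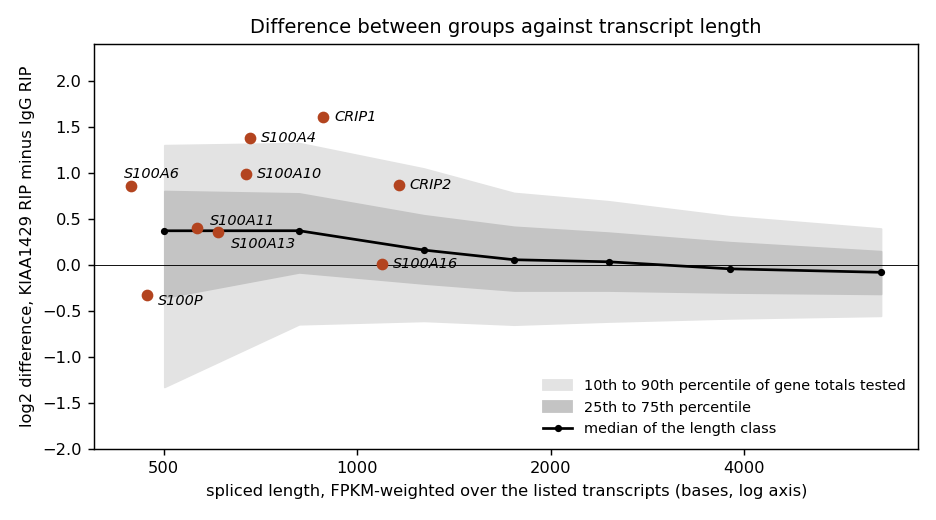
Log2 difference of gene totals between KIAA1429 RIP and IgG RIP against spliced length in bases (log axis); the black line joins the medians of 7 length classes of the gene totals tested, the grey bands give their 25th to 75th and 10th to 90th percentiles, and red points are the 9 listed genes. The class median falls from 0.37 to -0.08 with length; S100A11 and S100A13 lie near the line, CRIP1 and S100A4 lie above the bands, and CRIP1 was chosen by this difference.

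m6A is most often written in an RRACH context, of which GGAC is a common core. GGAC was therefore counted on the sense strand of the leading transcript of each gene, the one with the highest mean FPKM, and of CRIP1-201. At their annotated lengths, CRIP1-203 held 3 (4.43 per kilobase), S100A6-201 held 2 (4.61 per kilobase) and S100A10-202 held 6 (8.94 per kilobase). S100A11-201 held 4, S100A16-204 held 5, CRIP2-201 held 4, S100P-201 held 3, S100A4-206 held 4 and S100A13-205 held 2. CRIP1-201 held 9 over its 1311 bases (6.86 per kilobase). The median was 4.38 per kilobase in the 978 leading coding transcripts of at most 1000 bases and 3.62 in all 10294, and only 6.03% of the former and 0.787% of the latter held none, so that the letters are near universal. These counts describe letters and say nothing of methylation, which RIP-seq does not measure.

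Some GGAC sites in coding sequence are printed with 10 bases on each side, the site at the named position in capitals. They come from the LIM-domain pair and the S100 genes with separated, abundant values. CRIP2-201 and S100A10-202 hold further coding sites. The S100A10-202 site at position 306 falls within the printed stretch, in lower case. Positions count from 1 at the 5′ end of the named transcript.
CRIP1-203, position 219: ctctgggcaaGGACtggcatcggc
CRIP2-201, position 111: ccctggggaaGGACtggcacaagt
S100A6-201, position 244: tggaagacttGGACcggaacaagg
S100A6-201, position 256: accggaacaaGGACcaggaggtga
S100A10-202, position 300: aaataatgaaGGACctggaccagt
The CRIP1 site lies in coding sequence that both CRIP1 forms share, at position 1009 of CRIP1-201.

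Related sequences limit some of these values. S100A11-201 matches 3 other annotated genes at 90% identity or more over at least 30% of its length, among them S100A11P1 (91.4% over 315 bases) and S100A11P2 (91.7% over 315 bases), processed copies of its coding region. CRIP1-203 matches CRIP1P4 at 93.1% over 232 bases, and CRIP1P2 over 231 bases. None of these copies had a listed row. S100A13 shares 536 exonic bases with ENSG00000271853 on the same strand and 235 with S100A1 on the opposite strand. ENSG00000271853 had a listed row and matches S100A13-205 at 100% over 225 bases, whereas S100A1 had no listed row. Whether the counting used strand is not given in the sources used here, so the S100A13 values are uncertain. The leading transcripts of S100A4, S100A6, S100A10, S100A16, S100P and CRIP2 had no such match in other annotated genes.

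Other genes of the same families and of S100 partners were read from lists. Of 13 further S100 genes, S100A2, S100A3 and S100A9 were listed. S100A3 was at 2.33 and 9.36 FPKM in IgG RIP against 17.0 and 9.93 FPKM in KIAA1429 RIP, apart by a small margin, with a log2 difference of 1.25 ± 0.61 (SE; limma adjusted p = 0.997). S100A2 (4.77, 3.55, 3.41 and 8.10 FPKM in the same order) and S100A9 (0, 11.1, 5.68 and 11.5 FPKM) overlapped. CSRP1, a cysteine-rich LIM protein and the only listed CRIP relative of 4, overlapped at 8.51, 19.9, 8.32 and 9.64 FPKM.

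Among proteins that S100 members bind, 12 of 13 genes were tested, with a median log2 difference of 0.09. Both KIAA1429 libraries lay above both IgG libraries for 2 of them (16.7%, beside 16.6% of all gene totals) and below for 0, and 0 were called. ANXA2, the partner of S100A10, was at 542 and 521 FPKM in IgG RIP and at 648 and 663 FPKM in KIAA1429 RIP, a log2 difference of 0.30 ± 0.33 (SE; limma adjusted p = 0.997), and ANXA6 was the other. ANXA1, MYH9 and AHNAK, the other abundant genes of this list, overlapped. Among other small EF-hand proteins, 13 of 14 genes were tested, with a median of 0.36. Of the 13, 6 (46.2%) were apart with KIAA1429 higher, 0 lower and 0 called, beside 16.6% of all gene totals. The 6 were MYL6, MYL12A, MYL12B, CETN2, SRI and PDCD6. Of them, MYL6 (692 bases) had the highest level, at 136 and 141 FPKM in IgG RIP against 213 and 202 FPKM in KIAA1429 RIP. Only MYL6 and MYL12A (951 bases) of the 13 averaged at most 1000 bases, so the 38.9% of short mRNAs is not a like comparison. PDCD6, MYL12B, CETN2 and SRI averaged 1095, 1162, 1413 and 1873 bases. CALM2 and CAPNS1, abundant as well, overlapped between the groups.

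**Figure D5:**
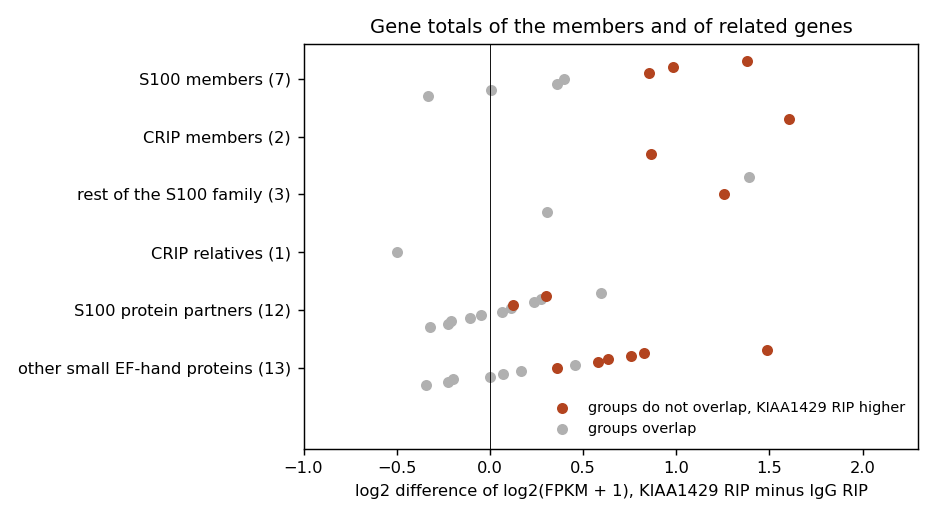
Log2 difference of each gene total between KIAA1429 RIP and IgG RIP, by list, with the number of genes in brackets; each point is a gene, red where both KIAA1429 RIP libraries lay above both IgG RIP libraries and grey where the groups overlapped. The S100 members other than S100A4 ran from -0.33 to 0.98, the S100 partners lay around 0 with a median of 0.09, and the other small EF-hand genes had a median of 0.36.

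The profile over the 4 libraries most like that of CRIP1 was sought among 7612 other gene totals with a mean of at least 5 FPKM, by the distance between log2(FPKM + 1) profiles each centred on its own mean. The nearest were NDUFB11, RIPK2, FAM162A, TTC1 and STYXL1, at distances of 0.33 to 0.39. NDUFB11, a small subunit of respiratory complex I with a mean length of 587 bases, was at 15.6 and 24.1 FPKM in IgG RIP and at 46.5 and 51.2 FPKM in KIAA1429 RIP. RIPK2 (2516 bases) was at 2.03 and 3.50 FPKM in IgG RIP and at 7.40 and 8.78 FPKM in KIAA1429 RIP. None of the 5 is a CRIP or S100 gene, and their likeness was chosen on the same values that chose CRIP1.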

How the data were processed

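Polyadenylated RNA from the precipitates was fragmented, copied with random primers and sequenced by the authors. Reads were aligned to GRCh37 with HISAT2 per the study's methods, while the submitters' processing notes name Bowtie2 2.1.0. The authors deposited FPKM values per transcript, and the tool and annotation release are not given in the sources used here. No column was left unmapped to a sample. From these values, gene totals were summed per gene name. Features averaging 1 FPKM or more entered the log2(FPKM + 1) fit of limma (version 3.58.1, R version 4.3.3), two-sided, with trend and Benjamini-Hochberg adjustment. A fold on this scale understates the change of low genes. The paper's methods name a count test, which FPKM do not allow. Lengths and exons came from GENCODE on GRCh37, with 97.0% of listed transcripts matched. BLAST searched for copies (at least 90% identity over 30% of the length). Python 3.11.15, numpy 2.4.6, pandas 2.3.3 and matplotlib 3.10.9 were used. The fit was tested on simulated data.

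The members and lists were chosen with earlier results of these data known. The named genes were the members with their listed transcripts, the listed genes of the S100 and CRIP relatives, at most 4 abundant genes of each other list plus any called, and the 5 profiles nearest to CRIP1. The EF-hand genes that were apart and the ratios were named after their values were seen. Depth was estimated only as given above, and steps cover counting error only. With 2 libraries per group, permuting the labels exactly cannot reach 0.05 for one gene and was not done. Alternatives were other pseudocounts, filters and scalings, a replicate block, no trend, other transcript sums and each library left out. Added after seeing the data were length-weighted sums, length-decile centring, length classes and the left-out libraries for the overlap count.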

Additional observations from a re-analysis of the deposited data

How the results depend on the processing

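The number of called gene totals was 0 with all alternatives but the replicate block, and the number of called transcripts was 0 with all of them. With the replicate block, 13 gene totals were called, 12 higher and 1 lower. They included CRIP1, which was chosen in this contrast and is given no test, and no other member. The replicate numbers are shared labels, as no source ties the same number to a batch. Deviations of the replicates correlated across features at 0.19 for gene totals and 0.03 for transcripts. The block changed no call of another member. Leaving out each library in turn called 0 gene totals and 0 transcripts.

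The number of member gene totals whose groups did not overlap was 5 of 9, CRIP1 included, beside 31.8% of all gene totals in either direction, and 4 to 6 with other scalings and sums. With median scaling and with quantile normalization the number was 6, as S100P was then apart with IgG higher. The number was 6 to 9 with a library left out, beside 61.6% to 69.6% of all gene totals, and it was 9 without IgG RIP replicate 2, beside 67.2%. With protein_coding transcripts alone, S100A4 fell under the filter and 8 members were left.

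CRIP1 kept its direction, at 0.80 with length-weighted sums, 1.23 with length-decile centring and 6.66 for its leading transcript alone, a value set by the pseudocount. S100A13, at 0.36 in the main fit, turned to -0.018 with length-decile centring and -0.27 for its leading transcript. It ranged from -0.030 to 0.75 with a library left out and stood at 0.62 with length-weighted sums. With protein_coding transcripts it stood at 2.09. These forms were all at 0 in IgG RIP replicate 1, so that value depends on the pseudocount. S100A16 turned to -0.0061 with median scaling, -0.13 with quantile normalization, -0.18 with length-decile centring, -0.070 with protein_coding transcripts and -0.013 with length-weighted sums, and ranged from -0.24 to 0.25 with a library left out. With quantile normalization, S100A11-201 stood at -0.083 and S100A16-204 at -0.089. With a library left out, ranges that crossed 0 were -0.77 to 3.81 for S100A13-203, -0.71 to 0.17 for S100A13-205, -0.22 to 0.38 for S100A16-204, -0.048 to 1.20 for S100A16-205, -0.71 to 1.16 for S100A6-203 and -0.88 to 0.19 for S100A6-205. The cause of these turns was not tested. No other member reversed. At 742646 to 985041 steps per library, of which 476800 to 707214 in listed transcripts, S100A4 and S100P rest on few steps. The fitted log2 difference of S100A4, 1.38, followed the pseudocount, with 2.96 at 0.1 and 4.62 at 0.01, and ranged from 0.72 to 2.04 with a library left out.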
